A study of Mus musculus with 6 samples.

Results

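The Ms4a genes described here are Ms4a3, Ms4a4a, Ms4a4c, Ms4a6b, Ms4a6c, Ms4a6d and Ms4a7, which were picked by symbol from a deposited table of 55487 mouse genes. They are 7 of the 21 genes in that table whose symbol begins with Ms4a, and all 7 had a mean high enough to be tested. They were chosen as a myeloid group with their difference between the study's groups in view, so their own differences are a description and carry no test. The data were 6 libraries of total RNA from mouse bone marrow cells selected for Kit, the receptor for stem cell factor. The cells had received a lentivirus that overexpresses MLLT3, either wild type (WT, n = 3) or the double mutant K63E K67E (DM, n = 3). Every culture, WT included, was given 200 nM 4-hydroxytamoxifen to delete the endogenous Mllt3 gene, so that WT stands for rescue by the wild type protein and not for untouched cells. Sorted cells were grown for 8 days in methylcellulose with mouse Flt3L at 10 ng/mL and further cytokines, among them EPO, SCF, GM-CSF, IL-3, IL-6 and IL-11, at 20 ng/mL each. The labels give neither the driver of the recombinase, nor the age of the mice, nor whether the libraries of a group came from separate animals, so the spread between them may be technical.

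Levels are given as rlog, a regularized log2 transform that corrects for library size and draws genes with few reads toward their own mean. A difference is the mean of DM minus the mean of WT, and the depth of the libraries is unknown because the values hold no counts. Kit itself, which the cells were selected for before culture, measured 14.39 ± 0.157 (SD, n = 3) for WT against 14.6 ± 0.296 for DM. Mllt3 was between 12.44 and 12.87 in WT and between 11.99 and 12.44 in DM. It was called lower in DM (-0.48, SE 0.137, limma adjusted p 0.0448), the part of which in the members' values was not tested, and these values do not separate the vector from the endogenous gene. Over all genes, 2611 of 18766 (13.9%) differed between DM and WT by limma at an adjusted p under 0.05. Of all tested genes 9.2% were called higher and 4.71% lower, and the groups did not overlap for 35.8%. Higher genes made up 66.1% of the calls, and 51.3% after quantile normalization. Without WT replicate 1, DM replicate 2 or DM replicate 3, 1185, 1119 and 1537 genes were called.

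The MS4A proteins cross the membrane several times and share a fold with CD20, the B cell antigen encoded by Ms4a1. Ms4a2 encodes the beta chain of the high affinity receptor for IgE on mast cells and basophils, and amplifies its signal. Ms4a3 marks the progenitors that give rise to granulocytes and monocytes and is known to bind the phosphatase CDKN3 in control of the cell cycle. Ms4a4a, Ms4a6d and Ms4a7 are known from macrophages, Ms4a4c and Ms4a6c from monocytes, and Ms4a6b from T cells as well as myeloid cells. The genes lie side by side in 1 cluster, which spans 678.6 kb of chromosome 19 from 10962293 to 11640851 (GRCm38, the assembly also called mm10). On the plus strand lie Ms4a4a (ENSMUSG00000101389.1, 11375523 to 11392790), Ms4a4c (ENSMUSG00000024675.19, 11404770 to 11427246), Ms4a6c (ENSMUSG00000079419.4, 11469366 to 11482192) and Ms4a6b (ENSMUSG00000024677.13, 11516512 to 11531256). On the minus strand lie Ms4a7 (ENSMUSG00000024672.11), Ms4a6d (ENSMUSG00000024679.10) and Ms4a3 (ENSMUSG00000024681.11), whose positions are given with their neighbours.

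The sequences before the starts of 4 members are shown because Ms4a3 was lower and Ms4a7 higher in DM, and because Ms4a6c and Ms4a6b are close copies. Each is the 250 bases upstream of the start in RefSeq on GRCm38.p6, read in the direction of the gene. Capitals mark GGAAGT or its complement ACTTCC, the core letters read by ETS factors such as PU.1.
Ms4a3 (chr19:11640852-11641101, minus strand): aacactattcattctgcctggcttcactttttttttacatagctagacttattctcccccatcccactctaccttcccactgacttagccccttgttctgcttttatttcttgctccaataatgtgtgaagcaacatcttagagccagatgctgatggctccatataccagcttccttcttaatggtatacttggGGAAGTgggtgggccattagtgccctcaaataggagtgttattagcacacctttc
Ms4a7 (chr19:11336147-11336396, minus strand): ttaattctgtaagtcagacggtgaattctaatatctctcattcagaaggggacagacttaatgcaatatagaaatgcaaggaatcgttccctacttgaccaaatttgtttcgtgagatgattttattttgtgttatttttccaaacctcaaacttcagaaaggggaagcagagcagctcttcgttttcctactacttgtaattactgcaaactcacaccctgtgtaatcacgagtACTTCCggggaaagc
Ms4a6c (chr19:11469118-11469367, plus strand): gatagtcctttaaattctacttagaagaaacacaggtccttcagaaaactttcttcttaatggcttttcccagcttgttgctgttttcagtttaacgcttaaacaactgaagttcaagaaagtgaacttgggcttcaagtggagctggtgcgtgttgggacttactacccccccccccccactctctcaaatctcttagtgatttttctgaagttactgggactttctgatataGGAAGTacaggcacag
Ms4a6b (chr19:11518309-11518558, plus strand): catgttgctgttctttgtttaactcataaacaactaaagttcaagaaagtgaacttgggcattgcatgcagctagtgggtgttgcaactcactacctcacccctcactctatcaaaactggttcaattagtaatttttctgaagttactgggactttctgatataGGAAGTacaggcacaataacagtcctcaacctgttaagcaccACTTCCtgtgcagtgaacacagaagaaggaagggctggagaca

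Of the 6 members with an entry in the promoter table, 5 held GGAAGT on either strand in these 250 bases, and Ms4a4a did not. Ms4a6d is the member without an entry. The same letters were found in 19.7% of all 32851 promoter entries and in 3 of 11 other Ms4a genes. The match began 15 bases before the start in Ms4a7 and Ms4a4c, 16 before it in Ms4a6c and 55 before it in Ms4a3, the gene that was lower in DM. Of the members called, Ms4a7 and Ms4a3 held the letters, and Ms4a6d could not be read for lack of an entry. The part of these letters in the members' differences was not tested. The windows of Ms4a6c and Ms4a6b share a run of 48 bases, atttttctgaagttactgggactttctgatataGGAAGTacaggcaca, which lies nearer to the start in Ms4a6c. The looser motif TTNNGNAA of C/EBP factors, searched on both strands, was present in all 6 members and in 36.8% of all entries, and in Ms4a3 it overlaps the GGAAGT shown. The interferon motif of 2 GAAA words with any pair of bases between them was found in 0 of the 6 members (2.98% of all entries). The AP-1 motif TGANTCA was found in 1, at the other start of Ms4a7 (6.75% of all entries). These motifs were chosen after the sequences had been seen.

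Ms4a3, the marker of granulocyte and monocyte progenitors, was far lower in DM. In replicates 1, 2 and 3, in that order here and for every gene, the WT rlog values were 11.97, 11.9 and 11.38, and those of DM were 8.98, 8.85 and 9.32. Every DM library lay below every WT library, and a gap of 2.07 separated the lowest WT value from the highest DM value. The mean went from 11.75 ± 0.32 (SD, n = 3) to 9.05 ± 0.242, a difference of -2.7, or 6.51-fold on the linear scale. Only 4 of the 18766 tested genes had a more negative difference, as its rank of 5 shows. The difference ran from -2.89 to -2.6 with any 1 library left out. In bulk RNA, fewer cells that carry a transcript and less of it per cell cannot be told apart, here and in all that follows.

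The macrophage genes Ms4a6d and Ms4a7 were higher in DM. Ms4a6d, whose protein is known from macrophages, measured 9.94, 10.36 and 9.71 in WT, against 10.66, 10.96 and 10.77 in DM. The groups did not overlap, although WT replicate 2 came within 0.29 of the lowest DM library. WT averaged 10 ± 0.332 (SD, n = 3) and DM 10.79 ± 0.152, a difference of 0.79, or 1.73-fold on the linear scale. For Ms4a7 the WT libraries gave 8.4, 8.73 and 8.24, and the DM libraries 8.89, 8.95 and 8.96. Its DM libraries lay close together and all above WT, with a gap of 0.16. The mean was 8.46 ± 0.25 in WT and 8.93 ± 0.0384 in DM, a difference of 0.48, or 1.39-fold. WT replicate 2 was the highest of the WT libraries for both genes and WT replicate 3 the lowest. Without WT replicate 2 the differences were 0.97 and 0.61, and without WT replicate 3 they were 0.64 and 0.37.

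Ms4a6c, Ms4a6b and Ms4a4c were highest in DM replicate 3, and for Ms4a6b and Ms4a4c the other DM libraries were not above the WT range. Ms4a6c, a gene of monocytes, measured 7.24, 7.53 and 7.22 in WT, against 7.26, 7.77 and 8.11 in DM, so that DM replicate 1 lay within the WT range and DM replicates 2 and 3 above it. Its difference of 0.38 became 0.18 without DM replicate 3 and 0.61 without DM replicate 1. Ms4a6b, known from T cells and myeloid cells, measured 4.1, 4.09 and 4.12 in WT, against 4.01, 4.08 and 4.53 in DM. Of its DM libraries only replicate 3 was above WT, and the difference of 0.1 became -0.06 without it. Ms4a4c, a monocyte gene known to respond to interferon, measured 3.6, 3.55 and 3.58 in WT, against 3.55, 3.59 and 4.02 in DM. Its difference of 0.14 became -0.01 without DM replicate 3.

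The same library stood out for interferon genes, a list of 14 that were all tested. The mean level of the list was 8.31 in DM replicate 3 and between 7.78 and 7.99 in the other 5 libraries. DM replicate 3 held the highest value for 12 of the 14 genes (85.7%), against 14% of all tested genes. Between the groups, 1 of the 14 passed the test, beside 13.9% of all tested genes. It was Bst2, an antiviral membrane protein (0.37, limma adjusted p 0.00997), and the list median was 0.09. Bst2 was not highest in DM replicate 3, with DM values of 10.07, 10.13 and 10.1. The part of this library's interferon genes in the values of Ms4a4c, Ms4a6b and Ms4a6c was not tested.

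Ms4a4a, a gene of alternatively activated macrophages, showed no separation of the groups. The WT libraries gave 4.49, 4.55 and 4.69, the DM libraries 4.47, 4.52 and 4.66, and the ranges overlapped almost fully. The difference was -0.03, with WT averaging 4.58 ± 0.102 (SD, n = 3) and DM 4.55 ± 0.0989, and it was 0.04 after quantile normalization. Ms4a4a, Ms4a6b and Ms4a4c lie in the range from 3 to 5, where rlog shrinkage is strong. The 5318 genes in that range had a median absolute difference of 0.06, 95% of them were at or under 0.2, and 1.62% were called. Over the 4461 genes from 9 to 11, where Ms4a3 and Ms4a6d lie, the median was 0.14 and 21% were called.

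Over the 7 members, 5 had a higher and 2 a lower mean in DM, with a median difference of 0.14 against 0.01 for all tested genes. By limma, 3 of the 7 were called, Ms4a6d and Ms4a7 higher and Ms4a3 lower, beside 13.9% of all tested genes. Ms4a3 was the 1 member called with at least a 2-fold difference, which 0.368% of tested genes had toward lower and 0.0639% toward higher values. Nothing is read from these counts, since the members were chosen on this contrast. Ms4a7 was no longer called without WT replicate 1, DM replicate 2 or DM replicate 3, where its difference was 0.45, 0.47 and 0.46. Ms4a6c was called only without DM replicate 1.

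**Figure D1:**
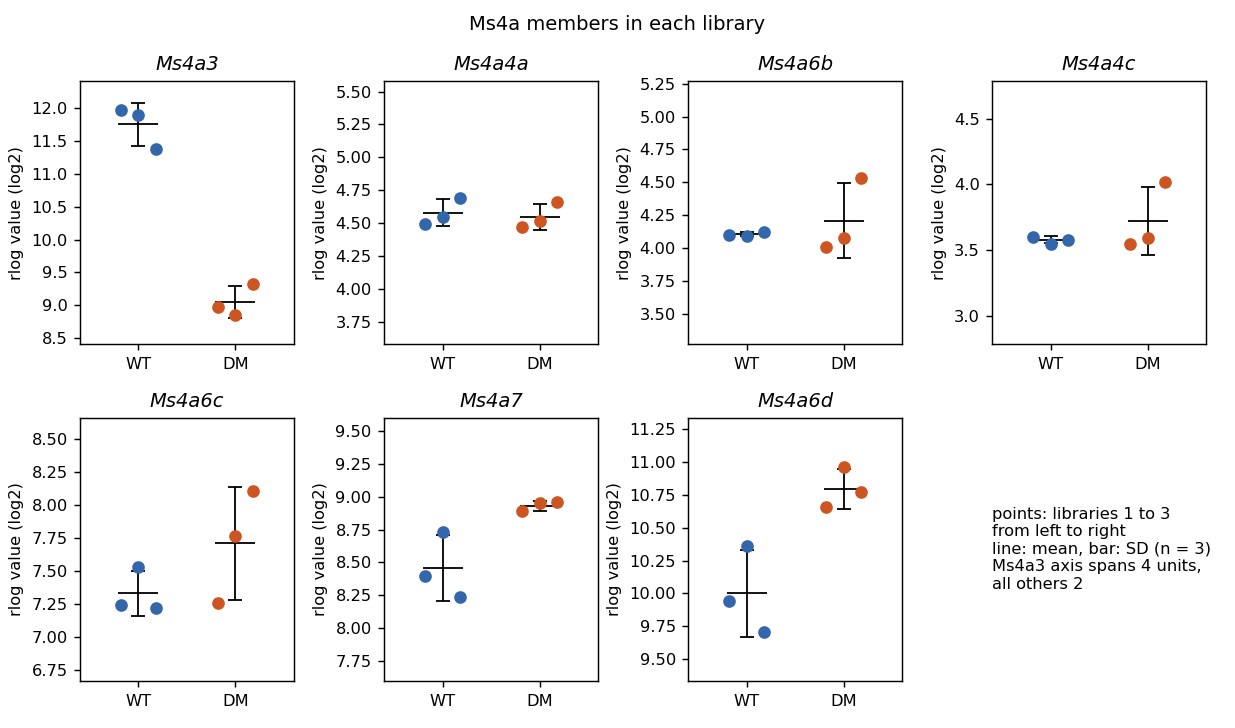
Values of the 7 members in each library. The y axes give rlog values (log2), points are libraries, the horizontal line is the mean and the bar the SD (n = 3). Ms4a3 is lower in every DM library, Ms4a6d and Ms4a7 are higher in every DM library, and DM replicate 3 is the highest point for Ms4a6c, Ms4a6b and Ms4a4c.

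Levels of different genes were compared per length, as the rlog value minus the log2 of the merged exon length in kilobases. In WT the order began with Ms4a3 (10.84 ± 0.32, SD, n = 3) and Ms4a6d (9.21 ± 0.332). Ms4a7 and Ms4a6c followed, both at 6.3, with libraries that overlapped. Ms4a4a (4.83), Ms4a4c (2.77) and Ms4a6b (1.94) came last. In DM the order of the leading pair was the opposite, with Ms4a6d at 10 ± 0.152 and Ms4a3 at 8.14 ± 0.242, and no library of the one overlapped a library of the other in either group. Ms4a7 (6.78) and Ms4a6c (6.68) again did not differ beyond their spread. The other neighbours in both orders had no overlapping libraries. With the longest transcript as the length, the exchange of Ms4a3 and Ms4a6d was the same.

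**Figure D2:**
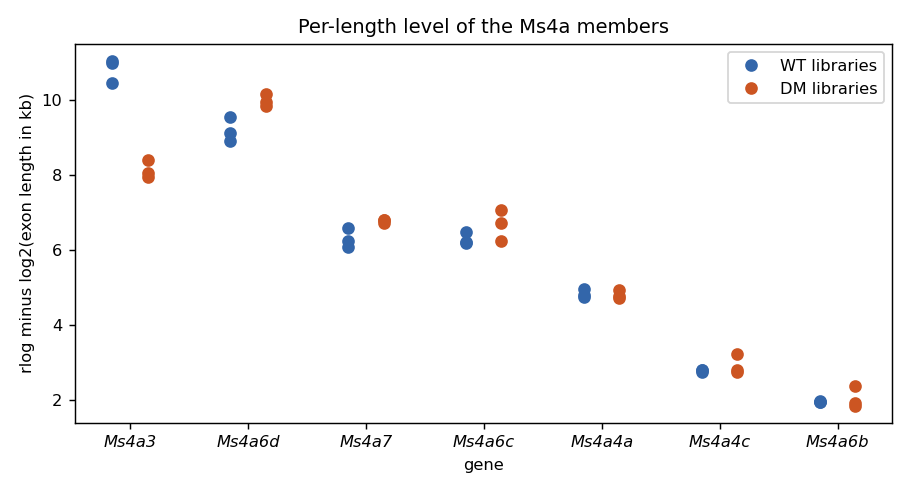
Per-length level of the 7 members, as rlog minus log2 of the merged exon length in kb, in each WT and DM library. Ms4a3 leads in WT and Ms4a6d leads in DM, while the other genes hold their order apart from the overlapping pair Ms4a7 and Ms4a6c.

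Neighbouring genes of the cluster differed in size and direction. Ms4a6d (11586604 to 11604849), Ms4a2 (11615523 to 11623719) and Ms4a3 (11629496 to 11640851) are neighbours on the minus strand of chromosome 19, separated by 10673 and 5776 bases. Their differences were 0.79, 0.08 and -2.7. Ms4a2, the IgE receptor chain, measured 14.08, 13.7 and 13.78 in WT, against 14.21, 13.77 and 13.8 in DM. The groups overlapped, and its difference of 0.08 (95% interval -0.22 to 0.38, limma adjusted p 0.736) was -0.08 after quantile normalization. Ms4a7 (11321039 to 11336146) lies 293349 bases from Ms4a3, toward the middle of the cluster. Next to Ms4a7 lies Ms4a14, with a difference of 0.19 (95% interval 0.02 to 0.36, limma adjusted p 0.134).

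Of the 14 Ms4a genes that are not among the 7, 3 were tested, Ms4a2, Ms4a14 and Ms4a8a. None of these 3 was called by limma at an adjusted p under 0.05, nor in any of the 13 alternatives in which they were tested (Ms4a8a falls under the minimum of 5 in 1 of them), and 1, Ms4a14, had an unadjusted p under 0.05 (0.0328). Ms4a8a had a difference of 0.04 (95% interval -0.1 to 0.17, limma adjusted p 0.704). The other 11, among them Ms4a1 and the T cell gene Ms4a4b, had means from -0.4 to 2.88, under the minimum of 3, and differences of at most 0.08 in size. Ms4a1 was at 2.16 in both groups. Tmem176a and Tmem176b, related membrane genes on chromosome 6, both fell. Tmem176a went from 4.8 ± 0.0408 (SD, n = 3) to 4.54 ± 0.0209, a difference of -0.26 (SE 0.0517, limma adjusted p 0.0108). Tmem176b differed by -0.37 (SE 0.0882, limma adjusted p 0.0228). The call of Tmem176b was lost after quantile normalization (-0.3, adjusted p 0.1) and without WT replicate 1 (0.0881), WT replicate 2 (0.0502), DM replicate 1 (0.0643) or DM replicate 3 (0.085). The annotation has these 2 genes overlap on opposite strands and whether reads were counted by strand is not given in the sources used here.

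**Figure D3:**
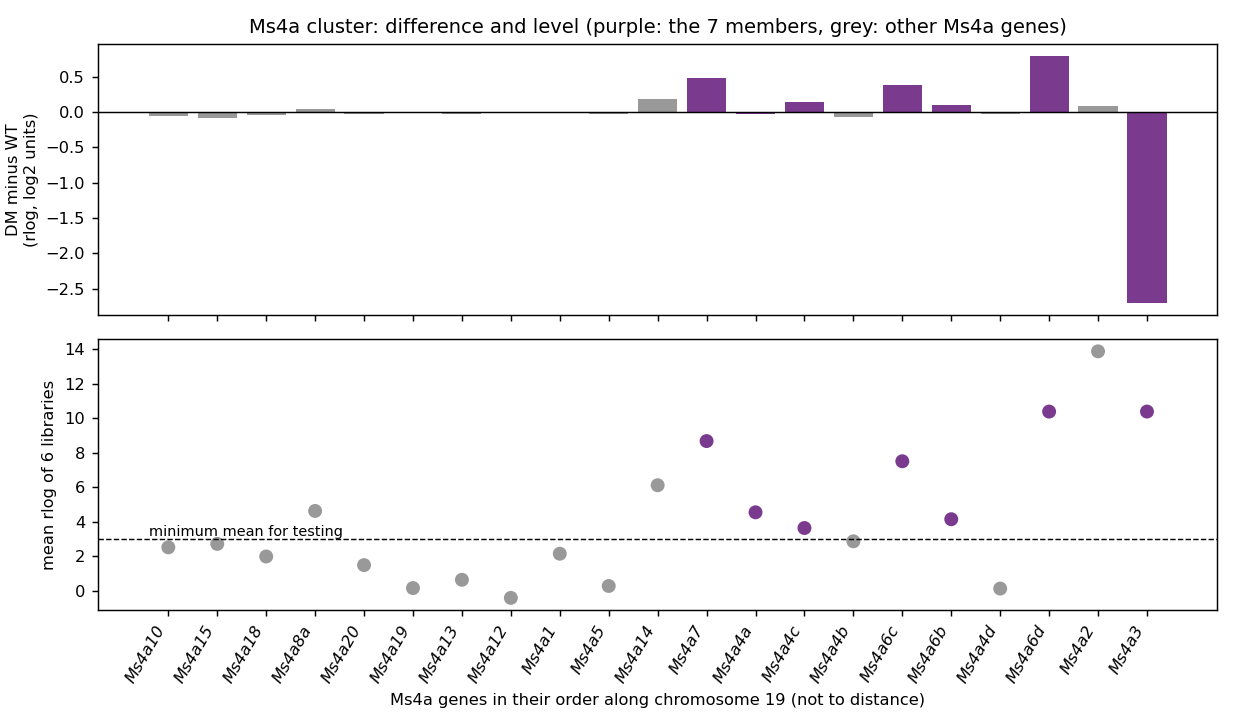
The 21 Ms4a genes in their order along chromosome 19. The upper panel gives DM minus WT in rlog units and the lower panel the mean rlog of 6 libraries, with the minimum of 3 for testing as a dashed line. Ms4a6d, Ms4a2 and Ms4a3 at the right end stand next to each other with differences of 0.79, 0.08 and -2.7.

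Genes of other families in the cluster or within 500 kb of it were read next, to see whether the differences were shared by the surroundings. Of 26 tested genes, 6 rose and 2 fell in DM by limma, 30.8% beside 13.9% of all tested genes, and their median difference was 0.05. With DM replicate 1 or DM replicate 2 left out, 5 were called. Slc15a3, a lysosomal transporter of peptides and histidine, rose most (0.73, SE 0.113, limma adjusted p 0.00492). AW112010 was the 1 called gene of the 2 inside the cluster, going from 8.4 ± 0.238 (SD, n = 3) to 9.06 ± 0.0402, a difference of 0.66 (SE 0.108, limma adjusted p 0.00624). Tmem109 (0.54, limma adjusted p 0.00563) and Ccdc86 (0.49, adjusted p 0.00626) also rose. The genes that fell were Tmem216, a protein of cilia (-0.38, limma adjusted p 0.0256), and Oosp1, an oocyte gene (-0.32, adjusted p 0.042), named after their values were seen.

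**Figure D4:**
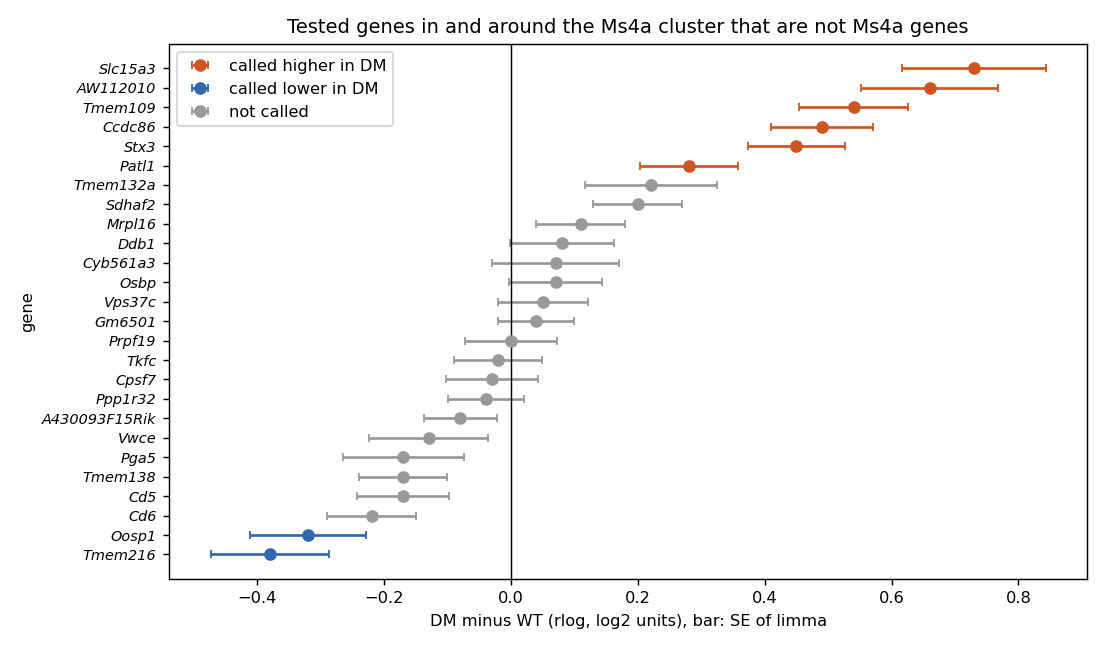
Tested genes in the Ms4a cluster or within 500 kb of it that are not Ms4a genes. The x axis gives DM minus WT in rlog units with the SE of limma, and colour marks the 6 genes called higher and the 2 called lower in DM.

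Most of the listed genes of the progenitors that Ms4a3 marks were lower with it. Of 16 such genes, 11 fell and 2 rose by limma, beside 4.71% and 9.2% of all tested genes. The 13 gene lists were chosen with earlier results of these data known, so their counts are a description and no independent evidence. The list had a median difference of -1.12. The largest falls were in the granule enzymes Mpo (-4.23, limma adjusted p 0.000444), Elane (-3.96, 0.000118) and Prtn3 (-3.37, 0.000118), and in Fcnb, a ficolin of granulocytes (-2.31, 0.000118). The members that rose were Irf8, a regulator of monocyte fate (0.56, limma adjusted p 0.016), and Csf2ra, a chain of the GM-CSF receptor (0.5, 0.0409), named after their values were seen. Irf8 was not called without WT replicate 1 (adjusted p 0.0627), DM replicate 2 (0.0632) or DM replicate 3 (0.0608). Csf3r (-0.41, limma adjusted p 0.131), Cebpa (-0.16, 0.486) and Cd34 (-0.01, 0.966), also on the list, were not called. The list averaged 11.74, 11.78 and 11.39 in WT, against 10.19, 10.04 and 10.42 in DM. In DM the list and Ms4a3 ranked the libraries alike, with replicate 3 highest and replicate 2 lowest, and in WT both were lowest in replicate 3. The highest WT library was replicate 1 for Ms4a3 and replicate 2 for the list. Of 12 listed neutrophil genes, 8 fell and 0 rose, with a median of -0.87. Their mean level was between 12.72 and 13.33 in WT and between 11.82 and 12.62 in DM. Of those not called, Lcn2, Csf3r and Mmp9 differed by -0.45, -0.41 and -0.21. Mmp8 differed by 0.5 (limma adjusted p 0.0521), with every DM library above every WT library. The part of cell numbers in the level of Ms4a3 was not tested.

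Macrophage genes were higher with Ms4a6d and Ms4a7. Of 16 tested macrophage genes, 11 rose and 0 fell by limma, beside 9.2% and 4.71% of all tested genes. This list, too, was chosen with earlier results of these data known. The list median of 0.7 was 0.57 after quantile normalization. Those that rose included Cd36, a scavenger receptor (1.13, limma adjusted p 0.016), the membrane protein Gpnmb (0.96, 0.012), the protease Ctss (0.96, 0.0115) and the lysosomal protein Cd68 (0.94, 0.00777). Cd36 lost its call without WT replicate 1 (adjusted p 0.0502) or DM replicate 2 (0.0605), and 7 genes of the list were called without DM replicate 2. The list averaged 9.7, 9.99 and 9.58 in WT, against 10.21, 10.48 and 10.3 in DM. This is the order of the libraries in Ms4a6d as well, with replicate 2 the highest of each group. Ms4a7 was also highest in replicate 2 in WT, but in DM its highest library was replicate 3 (8.96, against 8.95 in replicate 2). The complement genes C1qa (2.54 in WT and 2.47 in DM) and C1qb (3.07 and 3.02), abundant in many tissue macrophages, and Folr2 (1.8 and 1.75) were near the bottom of the scale. Of 12 monocyte genes, 5 fell and 3 rose, with a median of -0.37 that was -0.23 without WT replicate 2 and -0.55 after quantile normalization, while Ms4a6c and Ms4a4c, known from monocytes, had differences of 0.38 and 0.14. The part of cell numbers in the levels of Ms4a6d and Ms4a7 was not tested.

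**Figure D5:**
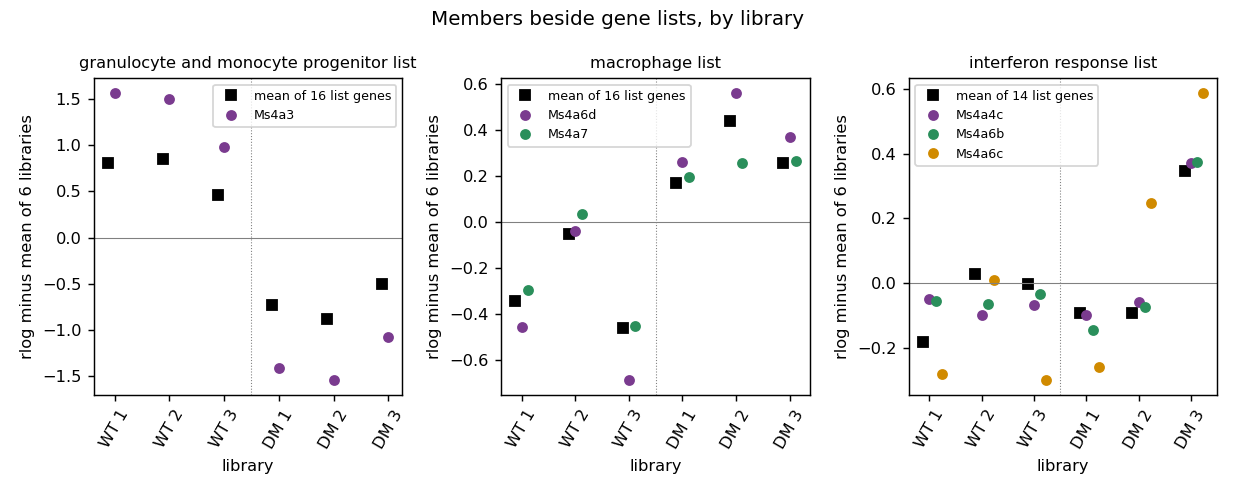
Members beside 3 gene lists in each library, as rlog minus the mean of the 6 libraries (log2 units). Squares are the mean of the list genes and circles the members, and the dotted line divides WT from DM. Ms4a3 lies beside the progenitor list, Ms4a6d and Ms4a7 beside the macrophage list, and DM replicate 3 is highest for the interferon list and for Ms4a4c, Ms4a6b and Ms4a6c.

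Lists of other cell types gave mixed counts, beside 9.2% of all tested genes called higher and 4.71% called lower. Of 12 mast cell and basophil genes, the cells in which Ms4a2 is known, 2 rose and 1 fell by limma, and the median of 0.1 was -0.16 after quantile normalization, -0.05 without DM replicate 1 and 0.22 without WT replicate 1. Their mean level was between 13.83 and 14.21 in all 6 libraries, and 1 of the 12 was called without WT replicate 2, WT replicate 3 or DM replicate 2. Among all 604 tested genes with a mean of 13 or more, 32% were called. The genes of this list that were called had means under 13 in both groups, so that share is not matched to them. Of 5 tested T and NK cell genes 3 fell, Nkg7 (-1.89, limma adjusted p 0.000155), Thy1 (-1.27, 0.00102) and Lck (-0.26, 0.0273), and Lck was not called after quantile normalization (0.0607) or without WT replicate 1 (0.0652), DM replicate 1 (0.0801) or DM replicate 3 (0.105). Cd3e, which defines T cells, was at 2.75 in WT and 2.68 in DM. Of 6 tested B cell genes 1 rose and 1 fell, and of 5 dendritic cell genes 2 rose and 1 fell. In the B cell list 1 was called without DM replicate 1 or DM replicate 2, and in the dendritic cell list 1 was called in 5 of the 6 fits that left out a library, the exception being WT replicate 2. Of 7 megakaryocyte genes 2 rose and 0 fell, and 1 was called without DM replicate 2. None of 7 erythroid genes was called by limma.

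Reported partners of MS4A proteins were read next, beside the Ms4a genes they are paired with. Of 9 tested partners, 5 rose and 2 fell by limma, beside 9.2% and 4.71% of all tested genes. The partners were also listed with earlier results of these data known. The median of 0.34 was 0.21 after quantile normalization. Clec7a, the glucan receptor dectin-1 that MS4A4A is known to join, went from 13.14 ± 0.378 (SD, n = 3) to 14.04 ± 0.15 (0.9, SE 0.165, limma adjusted p 0.00838), while Ms4a4a differed by -0.03. Trem2, a lipid receptor linked to MS4A4A in microglia, rose by 0.89 (limma adjusted p 0.00638). The IgE receptor signalling genes Syk (0.45, limma adjusted p 0.0162) and Fcer1g (0.42, 0.0128) rose, while Fcer1a, the chain that binds IgE, differed by 0.12 (0.581). Cdkn3, the phosphatase bound by the MS4A3 protein, fell by 0.41 (limma adjusted p 0.008), and its substrate kinase Cdk2 fell by 0.28 (0.0295), both named after their values were seen. Vsig4, reported to join MS4A6D, was at 0.65 in WT and 0.64 in DM and was not tested. With WT replicate 1 or DM replicate 2 left out, 3 of the 9 were called, and Syk and Fcer1g were among those lost (adjusted p from 0.0632 to 0.0776). Cdk2 was also lost without WT replicate 1 (0.129), DM replicate 1 (0.103), DM replicate 2 (0.0987) or DM replicate 3 (0.0589).

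Transcription regulators of myeloid cells were called in both directions. Of 14 genes, 5 rose and 3 fell by limma, beside 9.2% and 4.71% of all tested genes, and the median was 0.16. Those that fell were Cebpe (-1.74, limma adjusted p 0.000157) and Gfi1 (-1.54, 0.000306), regulators of granulocytes, and the progenitor factor Myb (-0.65, 0.0127), which was not called without DM replicate 2 (0.0529) or DM replicate 3 (0.0526). Klf4, a factor of monocytes, rose by 0.78 (limma adjusted p 0.0114). Spi1, which encodes PU.1, averaged 12.92 ± 0.121 (SD, n = 3) for WT and 13.07 ± 0.127 for DM, a difference of 0.15 (limma adjusted p 0.317). With DM replicate 2 or DM replicate 3 left out, 5 of the 14 were called.

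For each member the 3 tested genes outside the family with the most similar pattern were found, as the Euclidean distance over 6 libraries after the mean of each gene was subtracted. These distances describe the same 6 libraries and carry no test. Nearest to Ms4a3 were Plac8 (distance 0.647), Lipg (0.692) and Fcnb (0.772), where Ms4a3 itself is 3.358 from a flat line. Nearest to Ms4a6d were Mmp19 (0.063), a matrix protease, and Lgals3 (0.066), which encodes galectin-3, where Ms4a6d is 1.097 from a flat line. Lgals3 measured 15.1, 15.56 and 14.95 in WT, against 15.88, 16.16 and 15.93 in DM, with the same order of libraries as in Ms4a6d. Nearest to Ms4a7 were Vmp1 (0.088), Ticam2 (0.089) and Sestd1 (0.089). Nearest to Ms4a6c, which is 0.803 from a flat line, were E230016K23Rik at 0.265 and the kinase gene Map3k8 at 0.277. Ms4a4c and Ms4a6b shared Prdm9 (0.145 and 0.158) and Snhg17 (0.154 and 0.159) among their nearest genes, both highest in DM replicate 3. Ms4a4c and Ms4a6b are themselves only 0.407 and 0.417 from a flat line. Ms4a4a was nearest to Gm45153 (0.047), and is itself only 0.203 from a flat line.

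The members differ in how far their reads can be told from those of relatives. Ms4a4c and Ms4a4b are identical at 91.7% of their 678 coding bases. Ms4a6b shares 88.4% of aligned coding bases with Ms4a6c and 84.9% with Ms4a6d. Words of 75 bases in the annotated transcripts of Ms4a3, Ms4a7 and Ms4a4a were found in no transcript of another gene. For Ms4a4c 3.78% of words were also in Ms4a4b, for Ms4a6b 0.632% and for Ms4a6d 0.408% were shared with any other gene. For Ms4a6c the share was 47.7%, because BE692007 is annotated across it on the opposite strand, with a mean rlog of 1.43. The value of Ms4a6c is uncertain for that reason, and that of Ms4a4c because of its copy.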

How the data were processed

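Total RNA from 3 WT and 3 DM libraries was sequenced, all labelled batch 1. The authors deposited 1 table of rlog values on the log2 scale, as its name and values show. The submitters' processing notes name cutadapt 2.6, STAR 2.7.3, DESeq2 1.30.0 and the mm10 genome, without their settings. The counting tool, its strand setting and the annotation are not given in the sources used here, and depth is unknown.

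The 142699 lines were reduced to 55487 genes, of which 54435 (98.1%) matched GENCODE M21 by identifier. The 18766 genes whose 6 libraries averaged 3 or more were tested with limma 3.58.1 in R 4.3.3, with a mean-variance trend, no pseudocount and Benjamini-Hochberg adjustment, and called at an adjusted p under 0.05. The fit was tested on simulated data. Since rlog shrinks low genes, their differences are understated.

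The members, the 13 gene lists and the tests were chosen with earlier results of these data known. Named are the members, other tested Ms4a genes, Tmem176a and Tmem176b, and up to 3 nearest patterns per member. For some lists and the neighbours, up to 4 called genes of the largest difference are named. Called genes of the monocyte, neutrophil, mast cell, B cell, dendritic cell and megakaryocyte lists were counted without being named there. Other names were chosen after their values were seen. Alternatives changed the filter, trend, scaling, replicate block, gene length, and left out each library in turn. Promoters came from RefSeq (GRCm38.p6).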

Additional observations from a re-analysis of the deposited data

How the results depend on the processing

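The differences of the 7 members kept within 1 SD of their value in the alternatives run. These were 13 for Ms4a3, Ms4a6c, Ms4a6d and Ms4a7, and 12 for the others, which fall under the minimum mean of 5. Most alternatives could not have shown otherwise. Filter, trend and replicate block leave a difference unchanged, and leaving out 1 of 3 libraries moves a group mean by less than that group's SD. Only the changes of scaling could have moved the members further. After quantile normalization the differences of Ms4a3, Ms4a6d and Ms4a7 were -2.78, 0.7 and 0.43. The differences of Ms4a4c, Ms4a6b and Ms4a4a, which lie near 0, took either sign. With no filter on the mean, 138 genes were called over the whole table and 0 around the cluster, and of the members only Ms4a3. That fit takes in 7553 genes that are 0 in every library. With those left out, an alternative chosen after seeing the data, 1799 of 47934 were called, and 3 members. Leaving out 1 library each gave 1119 to 3475 genes called, and 5 to 8 around the cluster. The labels do not say whether equal replicate numbers pair the samples, and the main fit treated them as unpaired. The correlations of same-numbered WT and DM deviations were 0.491, 0.116 and 0.041, and WT replicate 3 was nearest to DM replicate 2 (0.124). These values do not settle whether the samples are paired. A fit with the replicate block called 3742 genes, against 2611 without it, and the same count of 3 members. Without counts, the precision of low genes such as Ms4a4c cannot be given.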
